A study of Mus musculus with 2 samples.

Results

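Vegfa, Vegfb, Vegfc, Pgf, Angpt1, Angpt2, Nrp1 and Nrp2 were taken by gene name from the total RNA of the mouse heart, 8 of 55536 Ensembl genes in the gene tables. They are 4 ligands of the vascular endothelial growth factor (VEGF) family, 2 angiopoietins and 2 neuropilins. The RNA came from hearts of female B6CASTF1/J mice, first-generation hybrids of C57BL/6J and CAST/EiJ, aged 18 to 20 months. The labels give no treatment and no second group, only replicates 1 and 2 of this 1 group, with separate biosamples but the same donor entry. The labels do not settle whether 1 or more animals were used, and part of the spread between replicates may be technical. Expected counts, the reads estimated per gene, totalled 35897521 in replicate 1 and 36926429 in replicate 2.

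As background, VEGF ligands act on receptor tyrosine kinases of endothelial cells: VEGF-A on Flt1 and Kdr, VEGF-B and placental growth factor (Pgf) on Flt1, and VEGF-C on Flt4 and, after processing, on Kdr. Angiopoietin-1 activates the receptor Tek (Tie2) and stabilises vessels, while angiopoietin-2 is mostly described as its context-dependent antagonist. Neuropilins are co-receptors that bind VEGFs as well as class 3 semaphorins, and in the heart cardiomyocytes are a known source of VEGF-A and VEGF-B.

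The VEGF-A forms differ in exons 6 and 7, which encode the basic, heparin-binding stretches of the protein, so both exons are shown because the transcript shares below turn on them. In GENCODE M21 (mm10, minus strand), exon 6 covers chr17:46022277-46022348 and adds 72 nt, or 24 codons. Exon 7 covers chr17:46020991-46021122 and adds 132 nt, or 44 codons. In the junctions, which join 15 nt of exon 5 to 15 nt of the next exon, capitals mark the downstream exon.
Vegfa exon 6: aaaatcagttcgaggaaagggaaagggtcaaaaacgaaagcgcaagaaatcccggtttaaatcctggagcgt
Vegfa exon 7: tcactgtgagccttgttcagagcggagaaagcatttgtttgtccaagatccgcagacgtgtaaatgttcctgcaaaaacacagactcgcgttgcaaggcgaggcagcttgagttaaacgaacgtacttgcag
Vegfa exon 5 to exon 6: aacaaagccagaaaaAAAATCAGTTCGAGG
Vegfa exon 5 to exon 7: aacaaagccagaaaaTCACTGTGAGCCTTG
Vegfa exon 5 to exon 8: aacaaagccagaaaaATGTGACAAGCCAAG

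Skipping both exons leaves a mature protein of 120 residues (VEGF120), exon 7 alone gives 164 (VEGF164), exon 6 alone 144 (VEGF144) and both 188 (VEGF188). These lengths count from the ATG, less a signal peptide of 26 residues, while Vegfa-202 and Vegfa-207 are annotated from an upstream CTG start with 368 and 392 codons. The junction to exon 8 occurs in 3 annotated Vegfa transcripts, the junction to exon 7 in 3 and the junction to exon 6 in 5, retained-intron transcripts included.

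Vegfb and Nrp2 also have alternative junctions. In Vegfb (mm10, chromosome 19, minus strand) the longer exon 6 holds 101 nt more than the shorter one and shifts the reading frame, so that mature VEGF-B has 186 residues with the longer and 167 with the shorter exon. In Nrp2 (mm10, chromosome 1, plus strand) the choice sets the membrane-spanning and cytoplasmic end of the protein, Nrp2a or Nrp2b. Nrp2a can also hold an exon of 51 nt, and 3 of the Nrp2 transcripts, of both forms, hold an insert of 15 nt (chr1:62786302-62786316) just upstream of this junction. The Nrp2 lines are those of the transcripts without that insert, and each occurs in 1 annotated transcript. In each line capitals mark the part after the junction, which tells the forms apart.
Vegfb exon 5 to shorter exon 6: tgtgaagccagacagCCCCAGGATCCTCTG
Vegfb exon 5 to longer exon 6: tgtgaagccagacagGGTTGCCATACCCCA
Nrp2a: tatcagcttttgcagATGAATATGAAGGAG
Nrp2a with 51-nt exon: tatcagcttttgcagTGGACATCCCAGAAA
Nrp2b: tatcagcttttgcagGGGGCACCCTCCCGC
Nrp2 15-nt insert: gtgaggattttaaag

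Levels are given in TPM, a relative transcript abundance corrected for transcript length, from the gene table with the column layout of RSEM, and were compared with a transcript table with the layout of kallisto, summed per gene. Vegfb and Vegfa led the set and Angpt2 was lowest. Of the 8 genes, 7 reached 1 TPM in both libraries, a level that 50.1% of 21951 protein-coding genes reached. Angpt2 fell short of it in replicate 2. The median of the 16745 nuclear protein-coding genes with any TPM was 3.82 TPM, above Vegfc, Pgf and Angpt2 and below the other 5 genes.

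**Figure D1:**
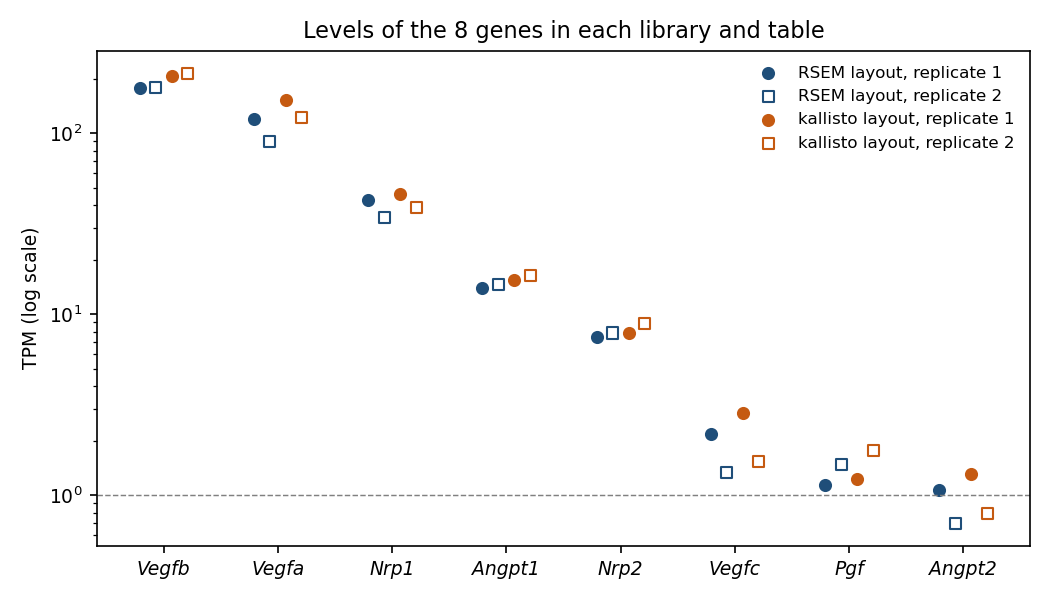
TPM (log axis) of the 8 genes in each library, from tables of the RSEM and of the kallisto layout; circles are replicate 1, squares replicate 2 and the dashed line 1 TPM. Vegfb is the highest at 178 and 180 TPM in the RSEM layout, and the 3 lowest genes, Vegfc, Pgf and Angpt2, lie between 0.700 and 2.19 TPM there.

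Vegfb, which encodes the Flt1 ligand VEGF-B (chromosome 19, 6982473 to 6987651, minus strand), stood at 178 TPM in replicate 1 against 180 in replicate 2. Its mean was 179 ± 0.948 TPM (SD, n = 2), above 98.1% of nuclear protein-coding genes with any TPM. Its 5501 and 5842 expected counts gave a ratio of counts relative to library totals, replicate 2 over replicate 1, of 1.03, with an exact 95% interval of 0.995 to 1.07 that covers counting error only. The libraries were level for this gene.

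Vegfa, which encodes VEGF-A (chromosome 17, 46016993 to 46032369, minus strand), stood at 120 TPM in replicate 1 against 90.5 in replicate 2. The mean was 105 ± 20.7 TPM (SD, n = 2), above 96.7% of nuclear protein-coding genes. Its 7210 and 5283 counts put it 1.40-fold higher in replicate 1 (95% interval 1.35 to 1.45), so the libraries differed by more than counting error. By TPM the log2 ratio, on the log2(TPM + 0.1) scale used for all TPM ratios here, was -0.40, and 80.4% of all genes with a mean of 1 TPM or more had a smaller ratio in size.

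Vegfc, which encodes the lymphatic growth factor VEGF-C (chromosome 8, 54077606 to 54187096, plus strand), had 2.19 and 1.34 TPM. Those levels rested on 139 and 93 counts. The ratio of these counts, relative to library totals, was 0.650, with an interval of 0.495 to 0.852, so replicate 2 was the lower library beyond counting error. The authors' credibility intervals of the posterior TPM, 1.97 to 3.38 and 1.20 to 2.17, overlapped. Pgf, which encodes placental growth factor (chromosome 12, 85166635 to 85177790, minus strand), had 1.14 and 1.47 TPM from 48 and 64 counts. Its count ratio was 1.296 with an interval of 0.878 to 1.93, which spans 1: at this depth no difference between the libraries was detectable for Pgf.

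Angpt1, which encodes the Tek agonist angiopoietin-1 (chromosome 15, 42424723 to 42676977, minus strand), stood at 13.9 TPM in replicate 1 against 14.6 in replicate 2, with 1616 and 1777 counts. The mean was 14.3 ± 0.502 TPM (SD, n = 2), above 76.7% of nuclear protein-coding genes. Angpt2, which encodes angiopoietin-2 (chromosome 8, 18690263 to 18741562, minus strand), had 1.07 and 0.700 TPM from 103 and 71 counts, above 31.1% of those genes. Angpt1 exceeded Angpt2 11.99-fold in replicate 1 and 18.4-fold in replicate 2, a mean log2 difference of 3.89 ± 0.44 (SD, n = 2). Angpt2 lies within the span of Mcph1, a gene of the opposite strand with 1.60 and 2.16 TPM. Angpt1 overlaps the antisense gene Gm17473 at its 5′ end, with 1.31 and 0.410 TPM. No source used here gives the strand setting of the authors' counting, so reads of these overlaps cannot be told apart. Nrp2 overlaps Gm37121 on its own strand, listed at 0.090 and 0.070 TPM.

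Nrp1, the neuropilin described for VEGF-A and arterial endothelium (chromosome 8, 128358604 to 128503363, plus strand), stood at 42.8 TPM in replicate 1 against 34.4 in replicate 2. The mean was 38.6 ± 5.98 TPM (SD, n = 2), above 91.1% of nuclear protein-coding genes. Its 4132 and 3507 counts put it 1.21-fold higher in replicate 1, relative to library totals. Nrp2, the neuropilin described for VEGF-C, veins and lymphatic vessels (chromosome 1, 62703285 to 62818695, plus strand), had 7.52 and 7.87 TPM from 1290 and 1455 counts. The count ratio was 1.10 with an interval of 1.02 to 1.18. Nrp1 exceeded Nrp2 4.93-fold, with a log2 difference of 2.30 ± 0.27 (SD, n = 2).

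The order of mean TPM was Vegfb, Vegfa, Nrp1, Angpt1, Nrp2, Vegfc, Pgf and Angpt2. Neighbours were called apart where both libraries gave the same sign and the mean log2 difference was larger than the difference between the libraries. Vegfb over Vegfa (1.72-fold), Vegfa over Nrp1 (2.71-fold), Nrp1 over Angpt1 (2.67-fold), Angpt1 over Nrp2 (1.85-fold) and Nrp2 over Vegfc (4.29-fold) met this rule. Vegfc and Pgf did not, since Vegfc was higher in replicate 1 and Pgf in replicate 2. Pgf and Angpt2 did not either. The kallisto-layout table gave the same calls. By expected counts, which are not per length, Vegfa had more counts than Vegfb in replicate 1 and fewer in replicate 2, with a mean log2 difference, Vegfb over Vegfa, of -0.12. With protein-coding transcripts only it was 1.27.

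All 8 genes had a higher mean TPM in the kallisto-layout table, as had 81.2% of genes with a mean of 1 TPM or more. The kallisto-layout values of Vegfa, 153 and 122 TPM, were 1.31-fold above the RSEM-layout values on average, and those of Vegfb, 206.5 and 214 TPM, also lay above. Both tables used the mm10 reference, which is C57BL/6J sequence, while the mice also carried a CAST/EiJ allele of each gene, and the effect on the reads assigned was not tested.

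Between the libraries, 0 of the 8 genes were 2-fold or more apart in TPM, against 4.21% of the 12504 genes with a mean of 1 TPM or more (3.29% higher in replicate 2 and 0.92% higher in replicate 1). Vegfa, Vegfc, Angpt2 and Nrp1 were lower in replicate 2, which makes 4 of 8, beside 45.6% of all those genes. The median log2 ratio of the 8 genes was -0.15, and that of all genes 0.023 with an SD of 0.64. The genes with the fewest counts, Vegfc, Pgf and Angpt2, had the widest counting intervals.

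**Figure D2:**
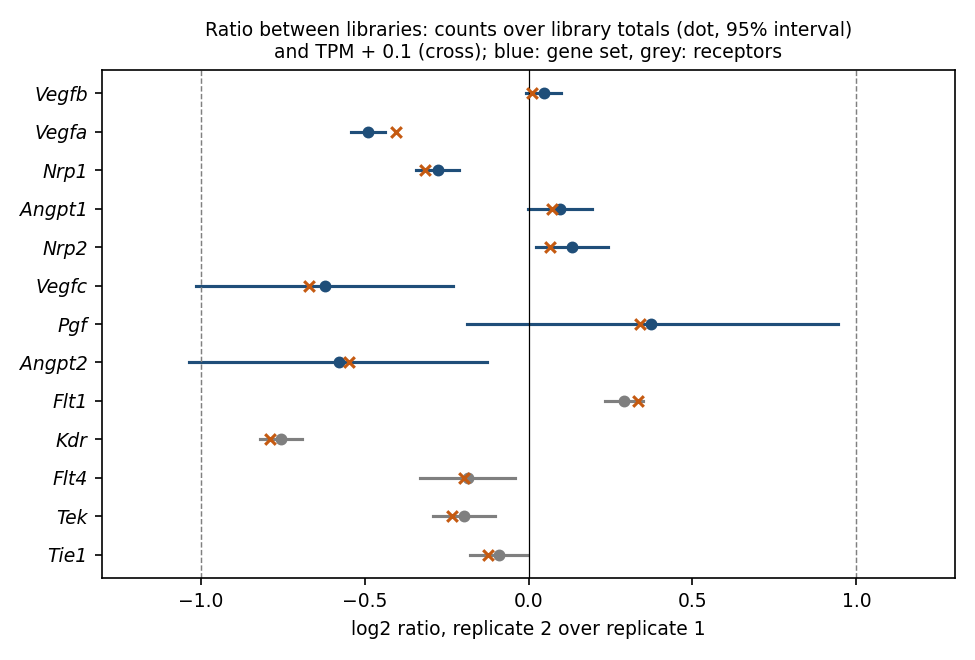
log2 ratio of replicate 2 over replicate 1 for the 8 genes (blue) and 5 of their receptors (grey); dots are expected counts relative to library totals with the exact 95% interval (counting error only), crosses are TPM + 0.1, and dashed lines mark a 2-fold difference. Vegfa lies at -0.40 by TPM and the receptor Kdr at -0.79, while Flt1 lies above 0.

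The genes and forms that follow were read against markers of the cells a heart sample can hold. The 6 cardiomyocyte markers, led by Myh6, summed to 25136 and 24047 TPM, and the 6 endothelial markers, among them Pecam1 and Cdh5, to 232.9 and 211.9 TPM with a median log2 ratio of -0.098. No marker list was at 0 throughout. The 8 mural markers summed to 295.9 and 281.2 TPM and the 5 fibroblast markers to 176.2 and 191.1 TPM. Some other lists differed more. The 6 adipocyte markers summed to 38.8 and 298 TPM and the 5 airway markers to 0.990 and 282 TPM. The 6 lymphocyte markers summed to 9.95 and 134 TPM and the 4 atrial markers to 441 and 1066 TPM. These sums were all higher in replicate 2. Of the airway markers, Scgb1a1, Scgb3a2 and Bpifa1 were listed at 0 in replicate 1. The 3 erythroid markers summed to 16068 and 7566 TPM. The part of these differences in the ratios of the 8 genes was not tested. In bulk tissue, fewer cells of a type and less RNA per cell cannot be told apart.

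Vegfa had 13 annotated transcripts, of which Vegfa-202, encoding VEGF164, held the largest share of Vegfa TPM in both libraries and both table layouts. It stood at 48.3 TPM in replicate 1 against 33.6 in replicate 2, and the authors' credibility intervals of the posterior TPM, 44.1 to 51.03 and 28.7 to 35.6, did not overlap. The share of transcripts with exon 7 only was 40.4% in replicate 1 and 37.2% in replicate 2. Transcripts with exons 6 and 7, for VEGF188, held 20.3% and 20.02%. Those with neither exon, for VEGF120, held 10.8% and 7.62%. The order VEGF164, VEGF188, VEGF120 was thus the same in both libraries of this layout.

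VEGF144, with exon 6 only, is represented by Vegfa-203, which was listed at 0% in replicate 1 and 5.17% in replicate 2. Its credibility intervals, 0 to 4.89 TPM and 0 to 8.64 TPM, overlapped and reached 0, so its presence was not settled. In the kallisto-layout table it held 4.81% and 5.40%. There, transcripts with exon 7 only held 36.7% and 27.9%, those with both exons 16.2% and 18.7%, and those with neither exon 4.004% and 7.98%. Vegfa-203 and the VEGF120 form thus took different ranks in the layouts: VEGF144 lay above VEGF120 in replicate 1 of the kallisto layout.

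**Figure D3:**
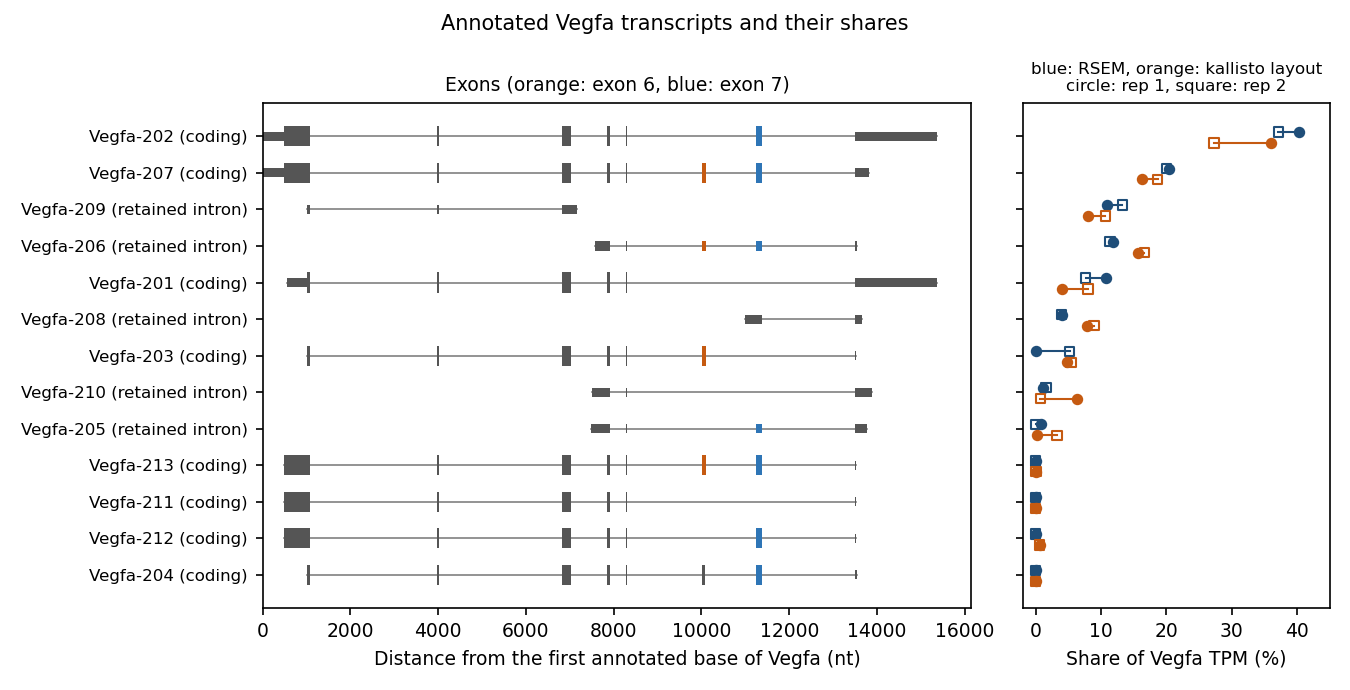
Exons of the 13 annotated Vegfa transcripts against distance from the first annotated base (nt; tall bars are coding, orange is exon 6, blue exon 7, and the shortened exon 6 of Vegfa-204 is grey), with each transcript's share of Vegfa TPM (%) at the right in both table layouts (circles replicate 1, squares replicate 2). The exon of Vegfa-208 that holds exon 7 also holds intron sequence and is grey as well. Vegfa-202 leads with 40.4% and 37.2% in the RSEM layout, and the retained-intron transcripts are short.

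The retained-intron transcripts of Vegfa, which are annotated as noncoding, held 28.5% and 30.03% of Vegfa TPM over 5 transcripts. In the kallisto-layout table they held 38.2% and 40.04%. By expected counts they held 6.29% and 7.001% of Vegfa, since they are short, 463 to 874 nt, and TPM is per length. Vegfa-209, a fragment of 463 nt that runs 151 nt into an intron (chr17:46025196-46025346), had 10.9% and 13.2% of TPM. Vegfa-206, of 640 nt with 282 nt of intron, had 11.9% and 11.4%, and Vegfa-208, of 550 nt, had 3.96% and 3.90%. Intronic reads of unspliced RNA, which total RNA contains, and reads of a spliced noncoding transcript were not separated here.

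Over the protein-coding transcripts of Vegfa alone, VEGF164 held 56.5% and 53.1%, VEGF188 28.4% and 28.6%, and VEGF120 15.1% and 10.9% of TPM. In the kallisto-layout table VEGF164 held 59.5% and 46.5% and VEGF188 26.3% and 31.2% on the same base. VEGF120 held 6.48% and 13.3% there, higher in replicate 2 where the RSEM layout had it lower, and VEGF144 held 7.80% and 9.004%. By expected counts over all transcripts, exon 7 only reached 62.7% and 62.8%. The annotation gives Vegfa-201 and Vegfa-202 a 3′ untranslated region of 1865 nt and Vegfa-207, the VEGF188 transcript, one of 315 nt. Of the 31-nt words of Vegfa-201, Vegfa-202 and Vegfa-207, 0% occur in no other Vegfa transcript, so their shares rest on junctions and on the annotated ends. How far the ends moved the shares was not tested.

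In Vegfb, the transcript with the shorter exon 6, Vegfb-202 for VEGF-B167, stood at 105 TPM in replicate 1 against 110 in replicate 2. Vegfb-201, with the longer exon 6, for VEGF-B186, had 72.6 and 68.9 TPM. The shorter form held 58.6% and 61.4% and the longer one 40.7% and 38.3%, so the shorter led in both libraries, by more than the libraries differed. The kallisto-layout table gave 59.1% and 60.8% for the shorter form. VEGF-B167 is known as the heparin-binding form and VEGF-B186 as the more freely soluble one.

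In Nrp2, the 4 transcripts of Nrp2a held 64.0% of TPM in replicate 1 and 68.2% in replicate 2, and the 2 transcripts of Nrp2b held 26.6% and 28.6%. Over protein-coding transcripts, Nrp2a held 70.6% and 70.4%. The leading transcript, Nrp2a without inserts, held 41.9% and 48.6%, and Nrp2b without inserts 26.6% and 25.1%. Nrp2a with the exon of 51 nt held 10.001% and 17.8%, and its credibility intervals, 0.27 to 1.39 and 0.79 to 1.85 TPM, overlapped. The retained-intron transcript of Nrp2 held 9.33% and 3.16%. In the kallisto-layout table Nrp2a held 69.04% and 68.6% and Nrp2b 26.001% and 29.8%, while the retained-intron transcript held 4.96% and 1.69%. Nrp2a without inserts held 49.3% and 45.5% there, so its order between the libraries was the opposite one.

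**Figure D4:**
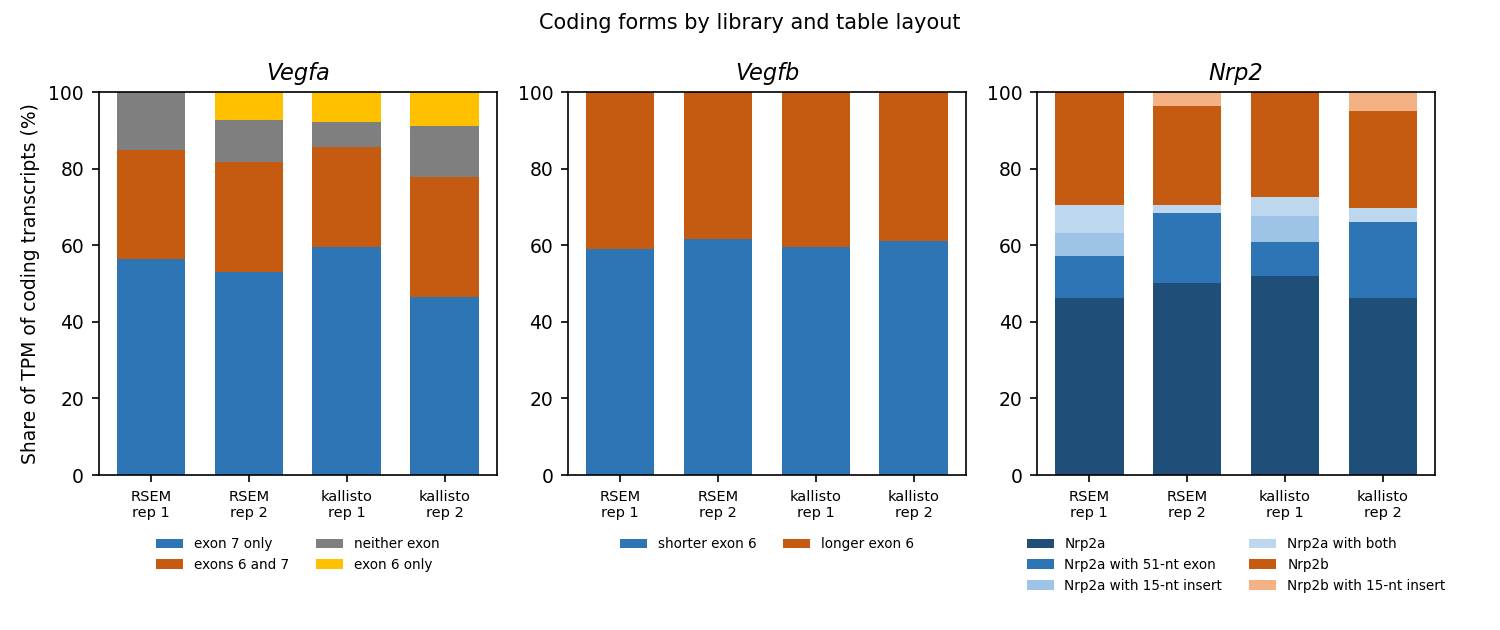
Share of the TPM of protein-coding transcripts (%) held by each form of Vegfa, Vegfb and Nrp2, stacked to 100% for each library and table layout. Exon 7 only (VEGF164) is the largest part of Vegfa in all 4 bars, the shorter exon 6 the larger part of Vegfb, and Nrp2a (blue shades) the larger part of Nrp2.

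The other genes were carried by 1 main transcript each. The Nrp1 transcript for the membrane-bound protein of 923 codons held 93.8% and 95.5% of Nrp1 TPM, and the leading retained-intron transcript 4.08% and 3.07%. In the kallisto-layout table that retained-intron transcript held 7.25% and 7.21%. The coding transcript of Angpt1 held 99.7% and 98.7%, and that of Angpt2 100% in both libraries. Vegfc-201, with 415 codons, held 96.02% and 100%, and the truncated Vegfc-203, with 184 codons, 3.98% and 0%. In the kallisto-layout table Vegfc-203 held 25.99% and 5.62%. Pgf-201 held 94.4% and 100% and Pgf-204 5.63% and 0%, but in the kallisto-layout table Pgf-204 held 32.2% and 22.3%. At the 48 to 139 counts of Pgf, Angpt2 and Vegfc these minor shares were not settled.

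The receptors of these ligands were all detected, at levels below the most abundant ligands. Flt1, the receptor shared by VEGF-A, VEGF-B and Pgf, stood at 24.5 TPM in replicate 1 against 30.9 in replicate 2, and Kdr, the main signalling receptor of VEGF-A, had 32.7 and 18.9 TPM. Relative to library totals, Flt1 was 1.22-fold higher in replicate 2 (95% interval 1.17 to 1.27) and Kdr 1.69-fold higher in replicate 1 (1.61 to 1.76). Kdr thus led in replicate 1 and Flt1 in replicate 2, so their order was not called. Both comparisons of libraries are of 1 library each.

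Vegfa TPM exceeded Kdr 4.18-fold and Flt1 3.77-fold, and Vegfb exceeded Flt1 6.48-fold, all called in both layouts. The Vegfa level here includes its retained-intron transcripts, at 34.17 and 27.19 TPM. Its protein-coding transcripts had 85.55 and 63.32 TPM, and their folds over the receptors, which would be smaller, were not computed. Nrp1 exceeded Kdr 1.54-fold. Flt4, the VEGF-C receptor, had 4.92 and 4.28 TPM and exceeded Vegfc 2.58-fold. Vegfd, the other Flt4 ligand, had 1.21 and 1.17 TPM, and its order with Vegfc was not called.

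Tek, the angiopoietin receptor, had 15.9 and 13.5 TPM, and its level was not called apart from that of Angpt1 (log2 difference, Angpt1 over Tek, -0.19 in replicate 1 and 0.12 in replicate 2). Tie1, the receptor that pairs with Tek, had 20.1 and 18.5 TPM and exceeded Tek 1.32-fold. Ptprb, the phosphatase that acts on Tek, had 19.9 and 22.6 TPM, the highest mean of the 3 genes. Angpt4, the remaining angiopoietin, had 0.060 and 0.110 TPM.

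**Figure D5:**
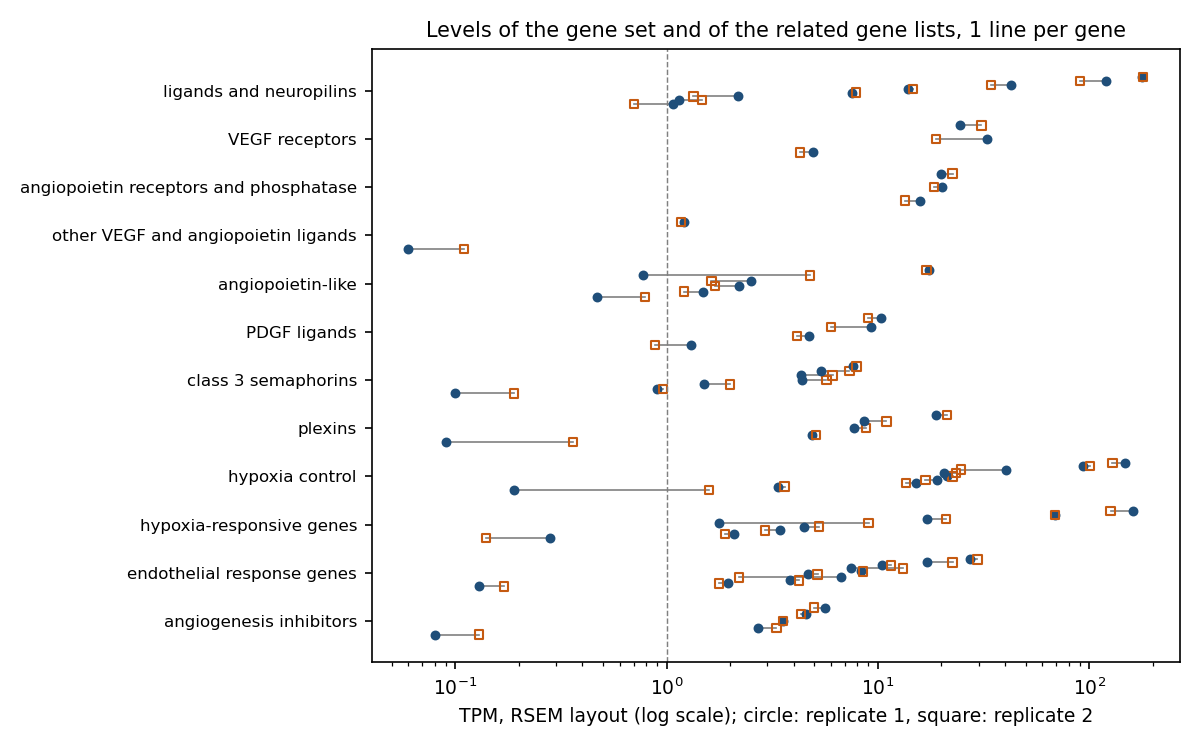
TPM (log axis, RSEM layout) of the 8 genes and of each related list, 1 line per gene joining replicate 1 (circle) and replicate 2 (square); the dashed line is 1 TPM. Most genes lie close together in the libraries, while Angptl4, Hif3a, Pfkfb3 and Plxna3 are longer lines to the right in replicate 2 and Aplnr is lower there.

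Semaphorins and plexins, which share neuropilins with the VEGFs, were detected in most cases. Of the 7 class 3 semaphorins, 5 reached 1 TPM in both libraries, led by Sema3b with 7.62 and 7.92 TPM, and all 7 lay higher in replicate 2 (median log2 ratio 0.38). By TPM of the RSEM layout, the 5 plexins were also all higher in replicate 2, with a median of 0.19. By counts relative to library totals, Plxna1 was lower in replicate 2, with a ratio of 0.931 and an interval of 0.871 to 0.996. Its kallisto-layout TPM was also lower there, 8.04 in replicate 1 against 7.05 in replicate 2. The counting interval of Plxna4, 0.995 to 1.13, spanned 1, while those of Plxna2, Plxna3 and Plxnd1 lay above 1. Plxnd1, the highest, had 18.9 and 21.2 TPM, and Plxna3 was the 1 plexin more than 2-fold apart, at 0.090 and 0.360 TPM from 18 and 39 counts. Over all genes the median was 0.023, and 45.6% of them were lower in replicate 2. Of protein-coding genes, 50.1% reached 1 TPM in both libraries.

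Among other secreted factors, the 4 PDGF ligands all lay lower in replicate 2 by TPM (median log2 ratio -0.36), none of them 2-fold apart. By counts relative to library totals, the interval of Pdgfd, 0.814 to 1.11, spanned 1. In the kallisto layout 2 of the ligands were nearly level, Pdgfb with 11.21 and 11.18 TPM and Pdgfd with 4.92 and 4.87 TPM. Of all genes with a mean of 1 TPM or more, 45.6% were lower in replicate 2 and 4.21% were 2-fold or more apart. Pdgfb, whose product recruits mural cells to vessels, led the PDGF ligands with a mean of 9.69 ± 0.969 TPM (SD, n = 2). Of the 6 angiopoietin-like genes, Angptl2 was highest with 17.5 and 17.0 TPM. Angptl4, a lipase inhibitor made in fat among other tissues, stood at 0.770 TPM in replicate 1 against 4.76 in replicate 2, 5.94-fold apart in counts relative to library totals (95% interval 4.32 to 8.33). That library was also the one with the higher adipocyte markers, 298 against 38.8 TPM, and their part in the Angptl4 ratio was not tested.

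Genes of oxygen sensing, which control Vegfa transcription, were mostly well detected. Of 9 genes, 8 reached 1 TPM in both libraries, beside 50.1% of protein-coding genes. Egln1, the main prolyl hydroxylase of the hypoxia-inducible factors, was highest with 148 and 129 TPM. Hif3a was 2-fold or more higher in replicate 2, with 0.190 and 1.59 TPM. Its mean, 0.89 TPM, lay below 1 TPM. Over all genes with any TPM, 11.1% were 2-fold or more apart in either direction. The median log2 ratio of the list was 0.091, with 5 of 9 higher in replicate 2. Of genes with a mean of 1 TPM or more, 45.6% were lower in that library.

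Of 8 hypoxia-responsive genes, 7 reached 1 TPM in both libraries, and 4 of the 8 lay higher in replicate 2 (median log2 ratio -0.068). The shares over all genes were 50.1% of protein-coding genes at that level and 45.6% of genes lower in replicate 2. Bnip3, a mitophagy receptor, was highest with 161 and 126 TPM. Pfkfb3, a regulator of glycolysis, had 1.78 and 9.04 TPM and was the 1 gene of the list 2-fold apart, beside 4.21% of all genes.

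Of 10 endothelial response genes, 9 reached 1 TPM in both libraries and 8 lay higher in replicate 2 (median log2 ratio 0.14). Of protein-coding genes, 50.1% reached that level. Of genes with a mean of 1 TPM or more, 45.6% were lower in replicate 2. Among the 8, the counting intervals of Nos3, Esm1 and Hey1 spanned 1. Cd34, a surface sialomucin of endothelial and other cells, was highest with 27.4 and 29.6 TPM. Aplnr, the apelin receptor, was the 1 gene 2-fold or more lower in replicate 2, at 6.72 and 2.20 TPM. Of all genes with a mean of 1 TPM or more, 0.92% were that much lower. Of the 5 angiogenesis inhibitors, 4 reached 1 TPM in both libraries, and Thbs1, thrombospondin-1, was highest with 5.64 and 4.99 TPM.

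Of the 4 lymphatic endothelial markers, set beside Vegfc, Flt4 and Nrp2, 3 were higher in replicate 2, and the median log2 ratio of the list was 0.34. Over all genes with a mean of 1 TPM or more, 45.6% lay lower in that library. Lyve1 had 6.24 and 10.2 TPM, Pdpn 2.63 and 3.09 TPM and Ccl21a 27.9 and 38.2 TPM. Prox1, a lymphatic transcription factor that cardiomyocytes also express, had 28.7 and 14.2 TPM. By TPM it was the 1 marker of this list 2-fold or more lower in replicate 2, beside 0.92% of those genes. Vegfc was lower in replicate 2 and Nrp2 was nearly level, and the part of the lymphatic markers in these ratios was not tested.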

How the data were processed

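Total RNA of 1 group, aged female mouse heart, was measured in 2 libraries. Per the deposited readme, all tables refer to mm10 and GENCODE M21. The gene and transcript expected counts, TPM values and isoform percent were deposited by the authors in the column layout of RSEM, per the file headers, with credibility bounds. A second transcript table has the layout of kallisto. No program, version or strand setting was named: each is not given in the sources used here.

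From these, levels were averaged as TPM (SD, n = 2), ratios used log2(TPM + 0.1), and exact binomial or Poisson intervals used rounded expected counts at a confidence level of 95%. They cover counting error only. Of the Ensembl genes, 55450 matched the annotation and entered the counts over all genes. With 1 group there was no test. The ratio calculation was tested on simulated data. Members, gene lists, markers and rules were chosen with earlier results of these data known. Named were the 8 genes, their transcripts with a mean share of 5% or more in either layout, 5 receptors, and of each list the highest gene and those 2-fold or more apart. Other genes named (Lyve1, Pdpn, Ccl21a, Prox1, Vegfd, Angpt4, Plxna1, Plxna4, Pdgfd, Nos3, Esm1, Hey1 and markers) come from the same lists, chosen with their values known. Alternatives were the kallisto layout, posterior TPM, other scalings, a pseudocount of 1 TPM, no low-value filter and leaving out each library. Python 3.11.15, pandas 2.3.3 and scipy 1.17.1 were used. Exon and junction sequences were read from the GENCODE M21 transcripts.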

Additional observations from a re-analysis of the deposited data

How the results depend on the processing

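No paired analysis was possible because the labels give only 1 group. The levels of the 8 genes moved by less than 1 SD in 35 of 40 recomputations and by more in 5 (leaving out 1 of 2 libraries moves a mean by less than 1 SD by construction). Their ratios between libraries, which have no SD, moved by less than the distance from the middle of their log2 counting interval to its bounds in 45 of 48 and by more in 3. The 3 ratios were all of Vegfa, which ran from -0.33 in the kallisto layout to -0.56 with median-of-ratios scaling and was negative throughout. The share of all genes 2-fold or more apart was 11.1% over all genes with any TPM.

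The log2 difference of Vegfb over Vegfa turned to -0.12 by expected counts, which are not per length, and was 1.27 with protein-coding transcripts only, both alternatives chosen after seeing the data. That of Nrp1 over Nrp2 was 1.47 by expected counts, and that of Angpt1 over Angpt2 was 3.03 with a pseudocount of 1 TPM. With 1 library left out they ran from 0.58 to 0.99, from 2.11 to 2.49 and from 3.58 to 4.204.

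For Vegfa, the kallisto layout gave 32.3% with exon 7 only, 17.5% with exons 6 and 7, 5.99% with neither and 39.1% with retained introns, and Vegfa-202 at 31.7%. Over protein-coding transcripts the first 3 were 54.8%, 28.5% and 12.99%, and Vegfa-202 54.8%. Except where lengths or classes enter by construction, the cause was not tested. With 1 library left out these shares ran from 37.2% to 40.4%, 20.02% to 20.3%, 7.62% to 10.8% and 28.5% to 30.03%. Depth limits Vegfc, Pgf and Angpt2, with 48 to 139 counts.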
